A study of Mus musculus with 2 samples.

Results

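The regions described here are the intergenic H3K36me2 peaks of mouse colon that lay up to 25 kb from the nearest transcription start site (TSS). They were chosen by the annotation deposited with each peak, as distal intergenic peaks with a distance of 25 kb or less to the TSS on either side, so that neither width nor signal entered the choice. Of the 19976 peaks of the Nsd2fl/fl library, 1894 met the rule, and of the 23518 peaks of the Nsd2ΔIE library, 2444 did. Together these were 4338 of 43494 peaks. The annotation calls everything within 3 kb of a TSS promoter, so the peaks closest to a TSS lay 3025 bp from it in Nsd2fl/fl and 3008 bp from it in Nsd2ΔIE.

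H3K36me2 was profiled by CUT&Tag, in which an antibody against the mark brings the transposase Tn5 to chromatin so that the DNA there is tagged and sequenced. Colon tissue came from mice on a high-fat cholesterol diet (HFCD), kept on it for 16 weeks according to the design text, while the paper's methods give another time. One library was made from Nsd2fl/fl mice, which carry floxed Nsd2 alleles, and 1 from Nsd2ΔIE mice, in which Cre under the Villin promoter removes Nsd2 from intestinal epithelium. The mice were male littermates on a C57BL/6J background and young adults when the diet began. The number of animals behind each library, the number of reads and an antibody-free control are not given in the sources used here. The colon holds immune, stromal, muscle and nerve cells in which Villin-Cre is not active, so fewer cells of a type and less mark per cell cannot be told apart. Among the epithelial markers, 5 of 9 had a listed peak of any kind in Nsd2fl/fl and 6 of 9 in Nsd2ΔIE, among them the cytoskeletal villin gene Vil1, the mucin Muc2 and the cadherins Cdh1 and Cdh17 in both. Markers of immune cells had a peak for 2 and 3 of 7, of stroma and muscle for 2 and 3 of 7, and of neurons and glia for 1 and 2 of 4. The summed width of all peaks at these markers went from 43147 bp in Nsd2fl/fl to 67363 bp in Nsd2ΔIE for epithelium, from 12757 to 20774 bp for immune cells, from 34529 to 21088 bp for stroma and muscle and from 3643 to 6338 bp for neurons and glia. The epithelial peaks held a signal of 1040803 and 1380280, far more per bp than the other sets, such as immune cells with 79488 and 134342. The part of Vil1 or any other single gene in these sums was not separated. A broad histone mark does not name a cell type, and Krt8 and Krt18, keratins of simple epithelium, had no peak in either list.

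H3K36me2 is written mainly by the NSD enzymes and spreads as broad domains over gene bodies and over the intergenic DNA around them, where enhancers lie. It is read by the PWWP domain of the DNA methyltransferase DNMT3A, which places DNA methylation in intergenic regions, and it counters the repressive mark H3K27me3. A peak in such a domain is a stretch where the signal passed the limit of the peak caller, and the absence of a peak is not the absence of the mark.

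Sequence is shown for microRNAs, as their products are short enough to be read whole, although they were rarer as nearest gene here than among the other peaks, at 31 Nsd2fl/fl peaks (1.64%, other peaks 2.51%) and 30 Nsd2ΔIE peaks (1.23%, other peaks 2.48%). Of the 24 and 25 microRNA genes behind these peaks, 7 had an intergenic peak in both libraries. Over all genes with such peaks, 573 of 1712 and 2151 did. At 6 of the 7 microRNA genes, Mir142, Mir184, Mir466j, Mir6358, Mir6404 and Mir7680, a peak of one library overlapped a peak of the other, next to 342 of the 573. The microRNAs were chosen after their values were seen and the 7 genes are few, so no conclusion is drawn from these counts. The mature sequences of 5 of these 6 microRNA genes are given 5′ to 3′ as RefSeq lists them for GRCm38.p6, with the seed, bases 2 to 8, in capitals. No 2 of these arms share a seed.
mmu-miR-142a-5p: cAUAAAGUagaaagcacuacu
mmu-miR-142a-3p: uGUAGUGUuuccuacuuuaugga
mmu-miR-184-5p: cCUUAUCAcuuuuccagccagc
mmu-miR-184-3p: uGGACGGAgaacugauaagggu
mmu-miR-466j: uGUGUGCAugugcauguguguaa
mmu-miR-6404: gUGGGAAGugacaagggguag
mmu-miR-7680-5p: aUUCCAGUgaacaagcaguu

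At Mir142, whose product is a microRNA of blood cells, the Nsd2fl/fl peak was 4050 bp wide with a summed signal of 25220. Its end nearer the TSS lay 4035 bp upstream. The Nsd2ΔIE peak was 4351 bp wide with a summed signal of 21821, at 3863 bp upstream. The Nsd2fl/fl peak lay entirely within the Nsd2ΔIE peak at chr11:87639477-87643827, in coordinates as the lists print them. Around Mir184, 3 Nsd2fl/fl peaks of 4326, 4737 and 3584 bp were listed, at 17287 bp and 9793 bp downstream and 3894 bp upstream. The Nsd2ΔIE list held 1 peak there, of 4094 bp, which overlapped the first of them. At Mir6358 the Nsd2ΔIE peak, of 8057 bp, overlapped 2 Nsd2fl/fl peaks, and it was wider than the one of 6268 bp with which it had most bp in common. At Mir466j, peaks of 6511 bp in Nsd2fl/fl and 5005 bp in Nsd2ΔIE overlapped 15506 and 15474 bp downstream of the TSS. Mir7680 had overlapping peaks of 3557 and 4033 bp, and Mir6404 had overlapping peaks of 2664 and 3375 bp. Of the peaks with most bp in common, the Nsd2fl/fl peak was thus the wider one at Mir184 and Mir466j and the Nsd2ΔIE peak at the other 4.

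To see where around genes the peaks lay, they were placed by their signed distance. In both libraries 2 of 3 peaks were upstream of the TSS they were assigned to, 1252 of 1894 in Nsd2fl/fl (66.1%, 95% Wilson interval 63.9% to 68.2%) and 1614 of 2444 in Nsd2ΔIE (66.0%, 64.1% to 67.9%). These intervals, here and below, cover the counting of peaks within a library and nothing else. The median distance was 11630 bp in Nsd2fl/fl and 11329 bp in Nsd2ΔIE. Upstream, the peaks thinned out with distance, from 389 Nsd2fl/fl peaks at 5 to 10 kb to 150 at 20 to 25 kb, and from 487 to 190 in Nsd2ΔIE. Downstream the decline was smaller and began further out, with 150, 167, 154 and 134 Nsd2fl/fl peaks in the 5 kb steps from 5 to 25 kb and 217, 224, 193 and 144 Nsd2ΔIE peaks. By the rule, a downstream intergenic peak lies past the end of its gene and within 25 kb of the TSS, so the genes concerned had to be short. Whether this has a part in the lower downstream counts was not tested. The median gene length was 3160 bp for downstream peaks of Nsd2fl/fl against 12105 bp for upstream ones, and 3222 bp against 11114 bp in Nsd2ΔIE. The downstream peaks lay a median of 8605 bp and 7885 bp past the end of the annotated transcript.

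**Figure D1:**
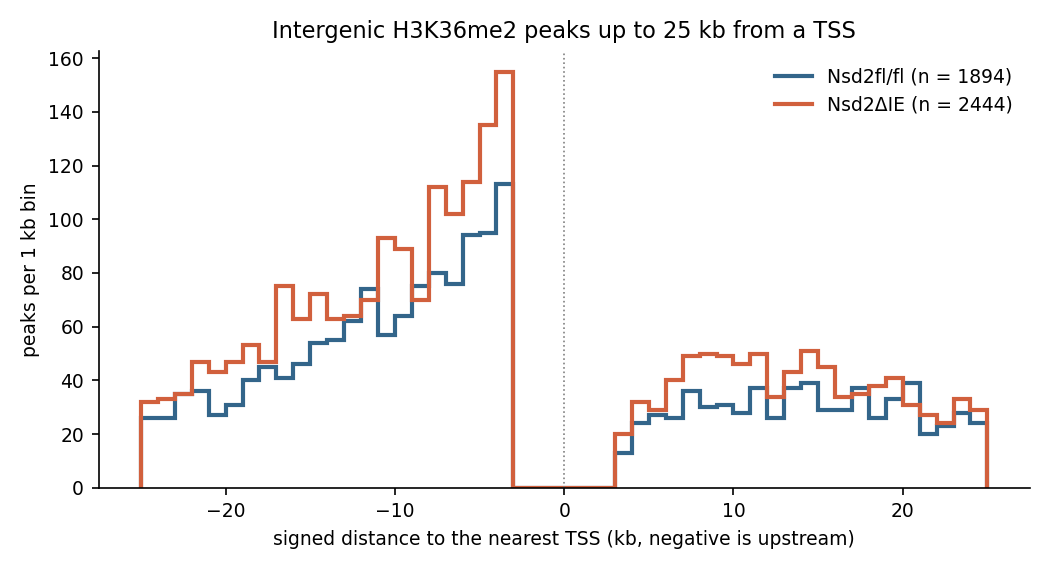
Number of intergenic peaks up to 25 kb per 1 kb of signed distance to the nearest TSS (x axis, kb, negative is upstream) in the Nsd2fl/fl library (n = 1894, blue) and the Nsd2ΔIE library (n = 2444, orange). Both lines are highest just upstream of the promoter limit of 3 kb and fall with distance, and on the downstream side they are lower, rise up to about 7 kb and then decline little in Nsd2fl/fl and more in Nsd2ΔIE.

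The nearest genes were mostly not protein-coding. By the gene types of RefSeq, a long noncoding RNA was nearest to 43.1% of Nsd2fl/fl and 42.8% of Nsd2ΔIE peaks, against 28.0% and 28.8% of all other peaks of the same lists. Protein-coding genes were nearest to 35.8% (33.7% to 37.98%) and 35.2% (33.4% to 37.1%), against 58.3% and 57.3% of the other peaks. Pseudogenes made up 10.7% and 12.2%, against 5.08% and 5.15%. Genes known only by a Gm, LOC or Rik name stood next to 1159 (61.2%) and 1523 (62.3%) of the peaks, and many of the loci below therefore have no known function. Upstream peaks had a protein-coding gene nearest in 42.6% and 41.5% of cases, downstream peaks in 22.6% and 23.0%. For 64.5% of Nsd2fl/fl and 62.9% of Nsd2ΔIE peaks, the same list assigned no promoter, exon, intron or UTR peak to the gene concerned. Such an exon or intron can be that of another gene. One Nsd2ΔIE exon peak assigned to Tlr2, for example, lay 64270 bp upstream of its TSS. The matching shares for other classes of peak are not given here.

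The peaks were spread over all autosomes and none lay on X, where the whole lists held only 1 peak in Nsd2fl/fl and 5 in Nsd2ΔIE. Chromosome 2 held the most, 177 and 227. As a share of the peaks of a chromosome they were most frequent on chromosome 13, at 13.7% and 15.7%. The lowest share was on chromosome 19 in Nsd2fl/fl, at 5.04%, and on chromosome 11 in Nsd2ΔIE, at 8.70%. The nearest other peak of the same list was a median of 21.2 kb away in Nsd2fl/fl and 17.4 kb in Nsd2ΔIE, against 12.9 kb and 11.6 kb for all other peaks and 30239 bp and 27731 bp for intergenic peaks beyond 25 kb.

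More intergenic peaks were listed after Nsd2 deletion, and they were narrower. The Nsd2ΔIE library had 1.29 times as many peaks of this kind as Nsd2fl/fl, compared with 1.34 times for intergenic peaks beyond 25 kb, 1.18 times for all peaks and 0.938 times for promoter peaks within 1 kb of the TSS. Their share of the list was 9.48% (9.08% to 9.90%) in Nsd2fl/fl and 10.4% (10.01% to 10.8%) in Nsd2ΔIE. When the Nsd2ΔIE list was reduced to its 19976 strongest peaks, the length of the other list, 2031 intergenic peaks up to 25 kb remained, a ratio of 1.07, and the ratio of promoter peaks within 1 kb was 0.827. With 1 library per genotype these differences have no replicate check, and no test between genotypes was made for any result here.

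The median width was 4502 bp in Nsd2fl/fl (interval of the median 4422 to 4571 bp) and 3320 bp in Nsd2ΔIE (3280 to 3376 bp). The ratio of these medians was 0.738, and it was 0.748 for intergenic peaks beyond 25 kb, 0.739 for promoter peaks within 1 kb and 0.738 for all peaks, so that narrower peaks were a property of the whole Nsd2ΔIE list. Fewer bp per peak and more peaks nearly balanced: the intergenic peaks up to 25 kb covered 8.99 Mb in Nsd2fl/fl and 8.56 Mb in Nsd2ΔIE, a ratio of 0.952. Over all peaks the ratio was 0.856, beyond 25 kb it was 0.992, and at promoters within 1 kb it was 0.675. Peaks of 10000 bp or more numbered 17 in Nsd2fl/fl and 3 in Nsd2ΔIE, of 676 and 163 in the whole lists.

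**Figure D2:**
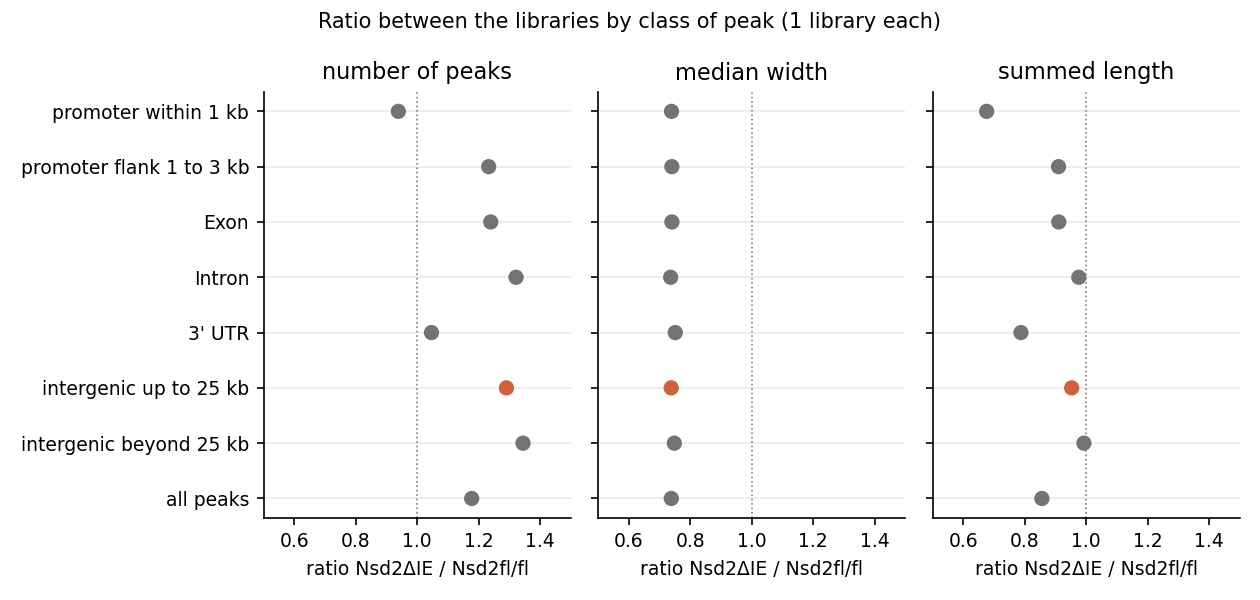
Ratio of Nsd2ΔIE to Nsd2fl/fl (x axes, linear) in the number, the median width and the summed length of peaks, for 7 classes of peak and all peaks (rows), without the smaller classes of 5′ UTR and downstream peaks, with intergenic peaks up to 25 kb in orange and a dotted line at 1. The median widths stand between 0.736 and 0.751 in the rows shown, whereas the number ranges there from 0.938 at promoters within 1 kb to 1.34 for intergenic peaks beyond 25 kb.

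The summed signal, the authors' value for each peak, is not stated to be scaled to depth and began at different limits, 21783 in Nsd2fl/fl and 16571 in Nsd2ΔIE, so it was ranked only within a list, and signals given for the same locus in both libraries are not a comparison of levels. In both lists, 30.3% and 30.1% of the intergenic peaks up to 25 kb lay within 10% of this limit, against 25.4% and 26.01% of all peaks. Only 14.5% of them were in the strongest 25% of the Nsd2fl/fl list and 17.2% in that of Nsd2ΔIE. Per bp, their median signal was 5.95 in Nsd2fl/fl and 6.22 in Nsd2ΔIE, next to 6.17 and 6.33 for all other peaks and 5.92 and 6.05 for intergenic peaks beyond 25 kb. The peaks on both sides of the 25 kb limit are given as a description. In Nsd2fl/fl, the last inside were a peak of 4788 bp at 24997 bp from Aktip and one of 7288 bp at 24984 bp from Tacc3, a gene of the mitotic spindle, and the first outside were peaks of 5140 bp at 25001 bp from Gm32756 and of 4958 bp at 25070 bp from E330035G20Rik. In Nsd2ΔIE, the last inside were a peak of 4906 bp at 24992 bp from LOC115490181 and one of 3258 bp at 24990 bp from Sod3, the extracellular superoxide dismutase, and the first outside were peaks of 2584 bp at 25020 bp from Gm3898 and of 4849 bp at 25027 bp from Sntg2.

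Whether the same intergenic places were marked in both genotypes was asked by overlap, with at least 1 bp in common counted. Of the Nsd2fl/fl peaks, 418 of 1894 overlapped a Nsd2ΔIE peak of any kind (22.1%, 20.3% to 24.0%), and of the Nsd2ΔIE peaks 478 of 2444 overlapped a Nsd2fl/fl peak (19.6%, 18.03% to 21.2%). Thus 77.9% and 80.4% had no counterpart, where the background over all peaks of each list was 65.9% and 69.3%. For intergenic peaks beyond 25 kb the overlapping share was 21.5% and 16.9%, for introns 26.2% and 24.5%, and for promoter peaks within 1 kb 41.9% and 38.8%. The share was highest near the TSS, at 26.1% (21.0% to 32.0%) and 25.4% (21.1% to 30.3%) for peaks up to 5 kb away, and 18.3% (14.2% to 23.2%) and 15.9% (12.3% to 20.2%) for those at 20 to 25 kb. It was alike on both sides, at 22.4% upstream and 21.3% downstream in Nsd2fl/fl and 19.5% and 19.8% in Nsd2ΔIE.

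Stronger peaks overlapped more often, and intergenic peaks up to 25 kb were weaker on average, so the shares were compared at like strength. In the strongest 25% of the Nsd2fl/fl list, 38.2% (32.6% to 44.0%) of the intergenic peaks up to 25 kb overlapped a Nsd2ΔIE peak, against 56.6% (55.2% to 58.0%) of all other peaks. In the weakest 25% the shares were 17.9% (14.9% to 21.2%) and 22.2% (21.0% to 23.5%). In Nsd2ΔIE the strongest 25% gave 32.6% (28.3% to 37.2%) and 50.3% (49.0% to 51.7%), and the weakest 13.7% (11.3% to 16.4%) and 21.5% (20.4% to 22.6%). The share was thus below that of the other peaks in all 4 classes of signal in both lists, and the intervals met only in the weakest class of Nsd2fl/fl. In the widest 25% of peaks the shares were 30.5% against 51.6% in Nsd2fl/fl and 25.5% against 44.6% in Nsd2ΔIE. Intergenic peaks beyond 25 kb had shares close by, at 36.5% and 30.6% in the strongest 25%. Whether the wider spacing of intergenic peaks, given above, has a part in these shares was not tested.

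**Figure D3:**
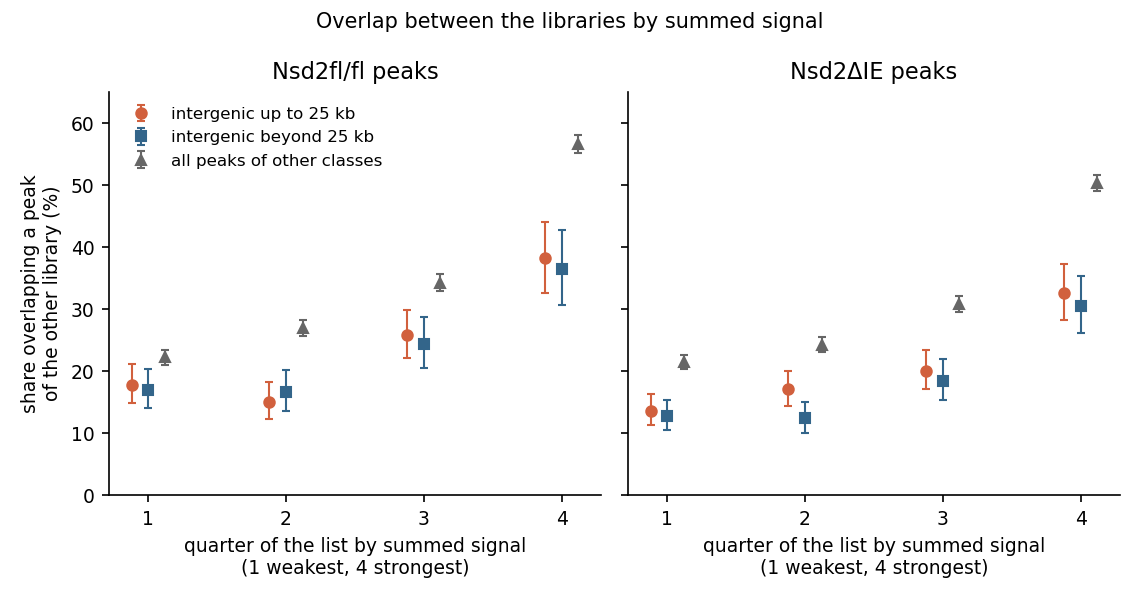
Share of peaks that overlap a peak of the other library (y axis, %, with 95% Wilson intervals) in 4 classes of summed signal, each holding 25% of the list, for intergenic peaks up to 25 kb (circles), intergenic peaks beyond 25 kb (squares) and all peaks other than those up to 25 kb (triangles). Both intergenic classes lie below the triangles in every class of both libraries, for example 38.2% against 56.6% in the strongest class of Nsd2fl/fl.

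For peaks without a counterpart, the distance to the nearest peak of the other list was measured. Of the 1476 such Nsd2fl/fl peaks, 71 (4.81%, 3.83% to 6.02%) had a Nsd2ΔIE peak within 1 kb and 460 (31.2%) within 10 kb, and the median distance was 19.8 kb. Of the 1966 such Nsd2ΔIE peaks, 80 (4.07%) had a Nsd2fl/fl peak within 1 kb and 518 (26.3%) within 10 kb, with a median of 23.4 kb. For the other peaks without counterpart, 5.87% and 5.71% had one within 1 kb and 39.4% and 37.0% within 10 kb, and the medians were 15.4 and 17.4 kb. Intergenic peaks beyond 25 kb had still lower shares, 3.74% and 2.57% within 1 kb and 24.2% and 19.7% within 10 kb, so low shares were not particular to the peaks up to 25 kb. Within 1 kb, the Nsd2fl/fl interval held the share of the other peaks. Where a counterpart existed it was mostly of the same kind. Taking the counterpart with most bp in common, 372 of 418 Nsd2fl/fl peaks (89.0%) and 387 of 478 Nsd2ΔIE peaks (81.0%) met another intergenic peak up to 25 kb, and 94.5% and 94.6% were assigned to the same gene. A promoter peak within 1 kb of the TSS was the counterpart of 4 Nsd2fl/fl and 30 Nsd2ΔIE peaks, and one at 1 to 3 kb that of 16 and 28.

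In all, 388 pairs joined 374 Nsd2fl/fl and 387 Nsd2ΔIE intergenic peaks up to 25 kb. The Nsd2ΔIE peak was the narrower one in 298 pairs (76.8%), next to 74.9% of all overlapping pairs of the lists. The median log2 ratio of widths, Nsd2ΔIE over Nsd2fl/fl, was -0.38, and over all pairs it was -0.48. It was below -0.5 in 168 pairs (43.3%, background over all overlapping pairs 49.1%) and above 0.5 in 24 pairs (6.19%, background 9.75%). The pairs had a median of 2648 bp in common, 55.5% of the Nsd2fl/fl peak and 81.7% of the Nsd2ΔIE peak. At least 50% of both peaks was shared in 207 pairs (53.4%), against 41.6% of all other pairs. Each peak also carries the position of its stretch of highest signal. These stretches lay a median of 1550 bp apart in the 2 libraries, and within 500 bp of each other in 83 pairs (21.4%), against 1982 bp and 15.8% in the other pairs. Overlap of a pair thus did not mean that the signal had its maximum at the same place.

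**Figure D4:**
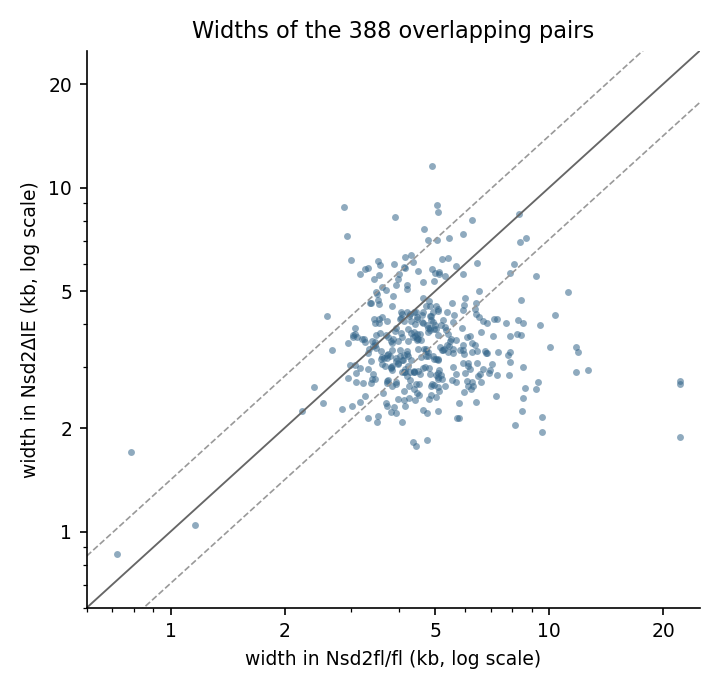
Width of the 388 overlapping pairs of intergenic peaks up to 25 kb in Nsd2fl/fl (x axis) and Nsd2ΔIE (y axis), in kb on log scales, with a line of equal width and dashed lines at log2 ratios of 0.5 to either side. Of the pairs, 298 lie below the line of equal width and 168 below the lower dashed line, and 3 pairs of short peaks stand apart at the lower left.

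The highest summed signal of all was at the uncharacterised LOC118567813, in a peak of 8300 bp with a signal of 159969 at chr10:58009403-58017702 in Nsd2fl/fl and one of 8371 bp with a signal of 152758 in Nsd2ΔIE, ranked 23rd and 14th in their whole lists. The highest signal per bp was at the pseudogene Gm4252, in a peak of only 1158 bp at chr17:36541848-36543005 with 70.9 per bp in Nsd2fl/fl and in one of 1047 bp with 90.0 per bp in Nsd2ΔIE. The pseudogenes Gm7612 and Gm7860 followed, with 51.1 and 34.8 per bp in Nsd2fl/fl and 27.2 and 26.5 per bp in Nsd2ΔIE. These 3 were the only peaks of this kind with 20 or more per bp in either library, against medians near 6, and all 3 overlapped between the libraries. They are the 3 short pairs in the plot of widths. Reads from near-identical copies of a pseudogene could be split or doubled by mapping, so these heights are uncertain. At LOC118567813 the signal per bp was 19.3 in Nsd2fl/fl and 18.2 in Nsd2ΔIE, also far above the medians. Whether mapping has a part there was not tested.

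At Ccl28, a mucosal chemokine that draws IgA-secreting plasma cells to the gut, the Nsd2fl/fl peak was 5706 bp wide with a signal of 84397, 5528 bp upstream of the TSS. The Nsd2ΔIE peak there was wider, 8420 bp with a signal of 67368, and reached close enough to the TSS to be annotated as a promoter peak. The widest peak of all, at the long noncoding RNA Gm40948, spanned 22194 bp in Nsd2fl/fl at chr13:52207901-52230094. It was met by 3 separate Nsd2ΔIE peaks of 1888, 2689 and 2734 bp. At Gm42327, a Nsd2fl/fl peak of 16165 bp overlapped a Nsd2ΔIE peak of 6700 bp that was assigned to the same gene from beyond 25 kb. In the other direction, a Nsd2ΔIE peak of 11546 bp at Gm40575 overlapped a Nsd2fl/fl peak of 4892 bp, one of 8235 bp at Gm33827 a peak of 3920 bp, and one of 8770 bp at Gm39776 a peak of 2878 bp.

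Of the peaks without counterpart, the strongest in Nsd2fl/fl were again long. They were one of 11642 bp at Gm31836, one of 12774 bp at 21927 bp upstream of Lmo1, a LIM-domain transcription cofactor, one of 13119 bp at Gm31333, one of 11655 bp at Gm29872 and one of 9379 bp at Odf3l1. The nearest Nsd2ΔIE peaks were 1986, 8020, 9253, 8471 and 2002 bp away. In Nsd2ΔIE the strongest were peaks of 11523 bp at Gm42243, 7223 bp at the double homeobox gene Duxbl1, 10736 bp at Gm32776, 7305 bp at Gm35634 and 7270 bp at Ankrd16. The nearest Nsd2fl/fl peak was only 745 bp from the one at Duxbl1 but 269217 bp from the one at Ankrd16. Strong peaks without counterpart thus included both near misses and places with no Nsd2fl/fl peak in the surroundings.

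The peaks were assigned to 1712 genes in Nsd2fl/fl, 13.7% of all genes with a peak, and to 2151 genes in Nsd2ΔIE, 15.8%. Most had a single peak, 1537 and 1893 genes, while 7 and 32 genes had 3 or more. Over both libraries the RNA gene Gm43837 had most, with 2 peaks in Nsd2fl/fl and 4 in Nsd2ΔIE, both Nsd2fl/fl peaks having a counterpart. The adrenergic receptor gene Adra2c had 2 and 3, the calmodulin-dependent kinase gene Camk1g had 1 and 4, the small nucleolar RNA gene Gm25261 had 2 and 3, and Gm31542 had 2 and 3. Other genes also had 5 peaks over both libraries, and these 4 came first by name. At Adra2c, peaks of 4637 bp in Nsd2fl/fl and 4344 bp in Nsd2ΔIE overlapped about 7.5 kb upstream, with signals of 33919 and 33137. At Camk1g, the Nsd2fl/fl peak of 4869 bp overlapped a Nsd2ΔIE peak of 2643 bp, and Nsd2ΔIE peaks of 3034, 2884 and 5424 bp stood beside it.

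To compare genes, the widths of each gene's intergenic peaks up to 25 kb were summed, and a log2 ratio of Nsd2ΔIE to Nsd2fl/fl past 0.5 in either direction was counted, with genes in 1 library only counted as less or more. Of 3290 genes, 1394 had less length in Nsd2ΔIE (42.4%, background over all peaks and genes 43.3%) and 1655 had more (50.3%, background 39.7%). This order was not stable. With lists of equal length, 1425 genes had less and 1378 more, and when all peaks of the same 3290 genes were counted, 1352 had less and 1295 more. For 1139 genes such a peak was listed only in Nsd2fl/fl, and 509 of these (44.7%) had a peak of another kind in Nsd2ΔIE. For 1578 genes it was listed only in Nsd2ΔIE, and 627 of these (39.7%) had another kind of peak in Nsd2fl/fl. Counting peaks of any kind, 4592 of 18187 genes were listed only in Nsd2fl/fl and 5725 only in Nsd2ΔIE. Among the 573 genes with intergenic peaks in both libraries, 342 (59.7%) had peaks that overlapped. The matching share for peaks of any kind is not given here, so this count has no background. The median log2 ratio of the 573 genes was -0.39, with 255 genes below -0.5 and 77 above 0.5. For the length of all peaks over the 7870 genes with any peak in both, the median was -0.32. Of these, 3292 were below -0.5 and 1498 above 0.5.

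The lowest ratio among these was at the tyrosine kinase gene Src, with Nsd2fl/fl peaks of 3478, 4632 and 4763 bp between 3480 and 16553 bp upstream of the TSS and a single Nsd2ΔIE peak of 2214 bp, a log2 ratio of -2.54. Dgcr6 followed, with 16969 bp against 2969 bp (-2.51), and Gm42327, with 20225 bp against 3677 bp (-2.46). The value at Gm42327 rests on the 25 kb limit, since the Nsd2ΔIE peak of 6700 bp that overlapped its longest peak lay beyond it and was not counted. The highest ratios were at A530016L24Rik, with 3557 bp in Nsd2fl/fl and 12348 bp in Nsd2ΔIE (1.80), at Gm35692, with 3470 and 11152 bp (1.68), and at Gm20083, with 3100 and 9833 bp (1.67). In each of these 6 genes the library with more length also had more peaks.

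Genes of the colon were read from 14 lists, with 390 genes in all. A peak of any kind was listed for 173 of them in Nsd2fl/fl and 196 in Nsd2ΔIE, and an intergenic peak up to 25 kb for 29 and 31, which were 16.8% and 15.8% of those with a peak. In all, 45 genes had one in at least 1 library, 14 only in Nsd2fl/fl, 16 only in Nsd2ΔIE and 15 in both. An intergenic peak in 1 library only does not by itself mean a gain or loss at the gene. The other library can hold peaks of another kind there, as at Tcf7, Wnt4, Bcl6 and Dnmt3a. Past the limit of 0.5, 20 of the 45 had less length in Nsd2ΔIE and 18 had more, next to 42.4% and 50.3% of all 3290 genes with such peaks. Over all genes with a peak of any kind, 13.7% in Nsd2fl/fl and 15.8% in Nsd2ΔIE had an intergenic one up to 25 kb, and the counts of single lists below rest on few genes.

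**Figure D5:**
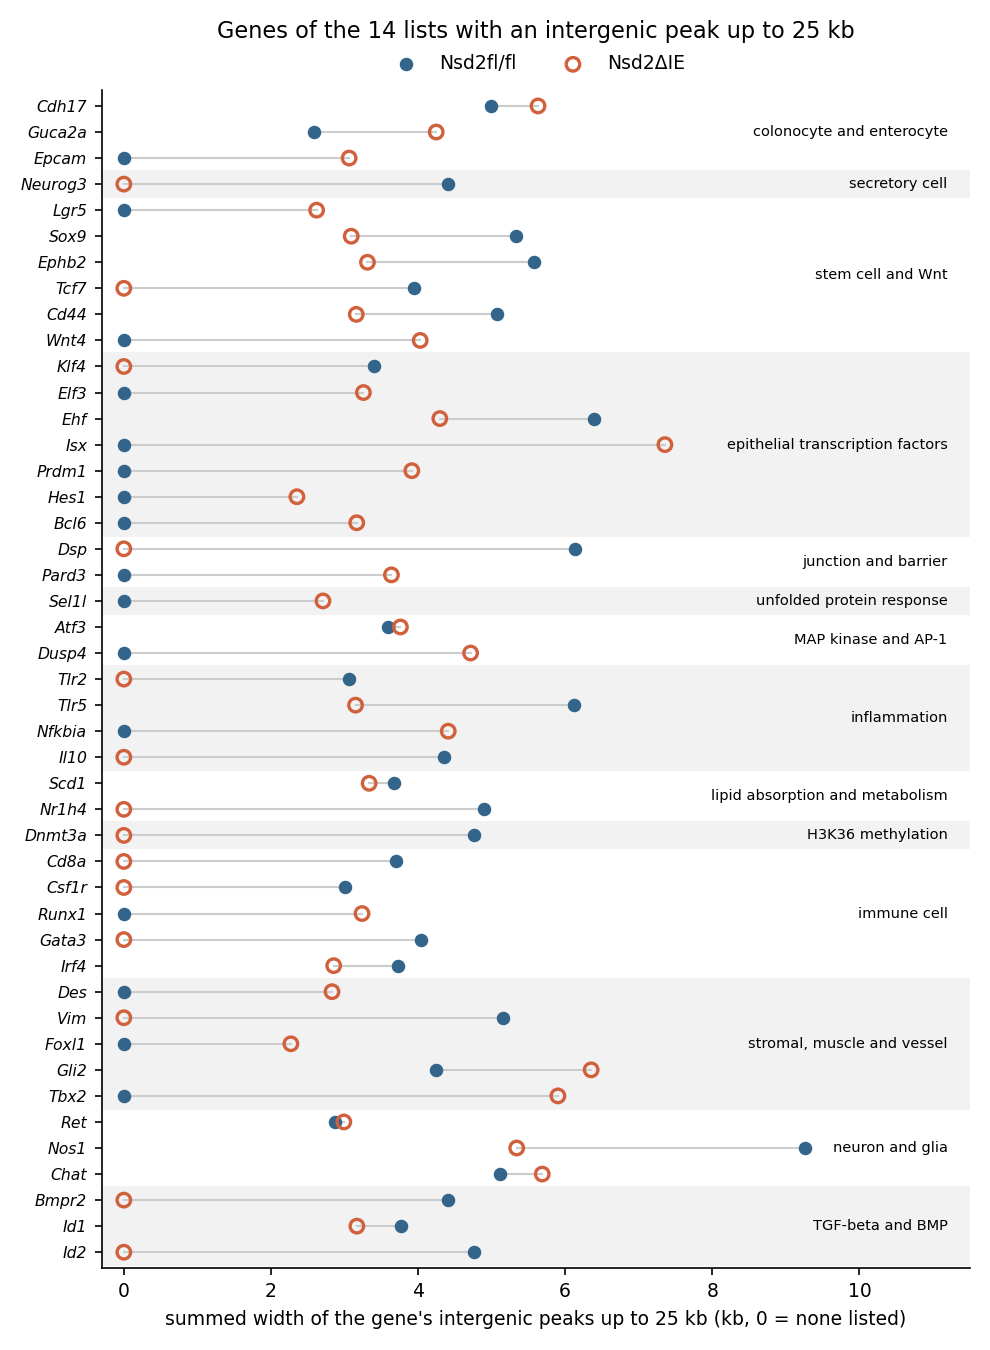
Summed width of intergenic peaks up to 25 kb (x axis, kb) for each of the 45 list genes with such a peak, in Nsd2fl/fl (filled) and Nsd2ΔIE (open), grouped by list, with 0 where none was listed. For 14 of the genes Nsd2ΔIE is at 0 and for 16 Nsd2fl/fl is, and among the other 15 the widths differ least at Ret and Atf3.

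Among colonocyte and enterocyte genes with any peak, 2 of 6 in Nsd2fl/fl and 3 of 9 in Nsd2ΔIE had such a peak. At Cdh17, the intestinal cadherin, peaks of 4997 bp in Nsd2fl/fl and 5631 bp in Nsd2ΔIE overlapped about 20.8 kb upstream of the TSS and ended 5 bp apart. At Guca2a, which encodes the peptide guanylin, the peaks were 2584 and 4247 bp wide, at 3590 and 3560 bp upstream. The adhesion gene Epcam had a peak of 3063 bp at 5821 bp upstream in Nsd2ΔIE alone, and the nearest Nsd2fl/fl peak was 50410 bp away. Of the secretory cell genes, 11 and 9 of which had any peak, only Neurog3, the endocrine lineage factor, had one, of 4413 bp in Nsd2fl/fl. The Nsd2ΔIE list instead had a promoter peak of 7113 bp at Neurog3, beginning 2792 bp from it.

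Of the stem cell and Wnt genes with any peak, 4 of 18 in Nsd2fl/fl and 5 of 20 in Nsd2ΔIE had an intergenic peak, and 3 had one in both. At Ephb2, a receptor that sorts cells along the crypt, the Nsd2fl/fl peak of 5582 bp at 18116 bp upstream held the Nsd2ΔIE peak of 3312 bp. At Cd44, a surface glycoprotein and Wnt target, peaks of 5077 and 3160 bp overlapped 11162 and 13717 bp upstream. At Sox9, a crypt transcription factor, the peaks were 5334 and 3091 bp wide and lay side by side, 120 bp apart. Tcf7, a Wnt effector, had a peak of 3946 bp in Nsd2fl/fl only, the stem cell receptor gene Lgr5 one of 2621 bp in Nsd2ΔIE only, and the ligand gene Wnt4 one of 4029 bp in Nsd2ΔIE only.

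Of the epithelial transcription factors with any peak, 2 of 14 in Nsd2fl/fl and 6 of 17 in Nsd2ΔIE had such a peak. Only Ehf had one in both, of 6398 and 4296 bp, the second inside the first. Klf4, a factor of goblet cell differentiation, had a peak of 3395 bp in Nsd2fl/fl. Isx, an intestinal homeobox gene that represses vitamin A uptake, had the widest, 7356 bp at 16990 bp upstream in Nsd2ΔIE. Nsd2fl/fl had no intergenic peak up to 25 kb there but promoter peaks of 5283 and 8872 bp at Isx, of which the nearer was 8848 bp away. Prdm1, Bcl6, Elf3 and the Notch target Hes1 had peaks of 3915, 3166, 3257 and 2353 bp in Nsd2ΔIE only, and the one at Elf3 overlapped a Nsd2fl/fl peak just past the gene's end.

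Junction and barrier genes with any peak numbered 11 in Nsd2fl/fl and 12 in Nsd2ΔIE. Dsp, a desmosomal gene, had an intergenic peak of 6135 bp in Nsd2fl/fl. The polarity gene Pard3 had one of 3638 bp in Nsd2ΔIE, and neither had one in both. Of the unfolded protein response genes, only 7 in Nsd2fl/fl and 9 in Nsd2ΔIE had any peak. Among them Sel1l, a part of the ER degradation machinery, had an intergenic one, of 2707 bp in Nsd2ΔIE. MAP kinase and AP-1 genes with any peak numbered 13 and 14. Among them, the stress-induced factor Atf3 had intergenic peaks of 3587 and 3760 bp, 2824 bp apart. The phosphatase gene Dusp4 had one of 4714 bp in Nsd2ΔIE. Of the inflammation genes with any peak, 3 of 13 and 2 of 17 had an intergenic one. These included Tlr5, the flagellin receptor, with peaks of 6115 and 3150 bp that lay 805 bp apart. Tlr2 and the cytokine gene Il10 had peaks of 3058 and 4350 bp in Nsd2fl/fl, and the NF-κB inhibitor gene Nfkbia one of 4410 bp in Nsd2ΔIE. Of the lipid genes with any peak, 2 of 20 and 1 of 21 had an intergenic one. The desaturase gene Scd1 had peaks of 3672 and 3335 bp in the 2 libraries, 3349 bp apart. The bile acid receptor gene Nr1h4 had one of 4901 bp in Nsd2fl/fl. Writers, erasers and readers of H3K36 methylation with any peak numbered 12 and 13. Among them, Dnmt3a had an intergenic one of 4754 bp in Nsd2fl/fl, 5917 bp upstream of the TSS. At its promoters Nsd2fl/fl had a peak of 4533 bp and Nsd2ΔIE had peaks of 6762 and 3037 bp.

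The genes of other cell types had such peaks as well. Of the immune genes with any peak, 4 of 14 in Nsd2fl/fl and 2 of 15 in Nsd2ΔIE had one. The transcription factor gene Irf4 had peaks of 3731 and 2853 bp that did not overlap. Cd8a, the macrophage receptor gene Csf1r and the T cell factor gene Gata3 had peaks of 3702, 3011 and 4042 bp in Nsd2fl/fl, and Runx1 one of 3238 bp in Nsd2ΔIE. The peak at Csf1r was 666 bp from a Nsd2ΔIE peak. For stromal genes these were 2 of 12 and 4 of 16. Gli2, a Hedgehog effector, had a peak of 4241 bp in Nsd2fl/fl and peaks of 2521 and 3832 bp to either side of it in Nsd2ΔIE. The intermediate filament genes Vim and Des had peaks of 5161 bp in Nsd2fl/fl and 2830 bp in Nsd2ΔIE, respectively, and Foxl1 and Tbx2 had theirs in Nsd2ΔIE.

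Of the neuron and glia genes, 10 of which had any peak in each library, 3 had such a peak, and each of them in both libraries. At Chat, the enzyme of acetylcholine synthesis, peaks of 5110 and 5688 bp with signals of 29461 and 29859 overlapped 17159 and 16142 bp upstream. At Nos1, the neuronal nitric oxide synthase, Nsd2fl/fl peaks of 4968 and 4298 bp stood against a Nsd2ΔIE peak of 5341 bp that overlapped the first. At Ret, a receptor of enteric neuron precursors, the Nsd2fl/fl peak of 2867 bp overlapped a Nsd2ΔIE promoter peak of 4352 bp, and the Nsd2ΔIE intergenic peak of 2991 bp lay further upstream. Of the TGF-beta and BMP genes with any peak, 3 of 13 in Nsd2fl/fl and 1 of 15 in Nsd2ΔIE had such a peak. The target gene Id1 had peaks of 3763 and 3168 bp, 527 bp apart. Id2 and the receptor gene Bmpr2 had peaks of 4762 and 4405 bp in Nsd2fl/fl only. Over all lists, 7 of the 15 genes with peaks in both libraries had peaks that overlapped, namely Cdh17, Guca2a, Ephb2, Cd44, Ehf, Nos1 and Chat. Of all genes with such peaks in both libraries, 342 of 573 (59.7%) had peaks that overlapped.

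Homeobox genes, the developmental regulators that the deposited annotation groups as a transcription factor family, were looked at after their values had been seen. They were the nearest gene of 21 Nsd2fl/fl peaks (1.11%, 0.726% to 1.69%) and 26 Nsd2ΔIE peaks (1.06%, 0.727% to 1.55%), next to 0.653% and 0.579% of all other peaks. Over all transcription factor families of the annotation the shares were 4.28% and 3.60%, next to 4.30% and 4.33% of the other peaks. The homeobox peaks belonged to 16 and 17 genes, of which Duxbl1, En2, Irx6 and Lhx4 were in both libraries. Over all genes with such peaks, 573 of 1712 and 2151 were in both. The ceramide synthase gene Cers3 is counted in the family by the annotation. At Irx6, 2 Nsd2fl/fl peaks of 3938 and 3719 bp overlapped 3 Nsd2ΔIE peaks of 3197, 2705 and 3271 bp. At Lhx4, peaks of 5672 and 2876 bp overlapped. At En2, the Nsd2fl/fl peak of 7865 bp and the Nsd2ΔIE peak of 3670 bp did not. Lbx1, a regulator of limb muscle precursors, had 4 Nsd2ΔIE peaks of 2750 to 3267 bp between 4977 bp and 23297 bp from its TSS, and none in Nsd2fl/fl.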

How the data were processed

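Peak lists of 1 Nsd2fl/fl and 1 Nsd2ΔIE library were used as deposited. The authors called the peaks library by library and annotated each with its nearest gene, feature and distance to the TSS. Their processing notes name Bowtie2, deepTools, SEACR and ChIPseeker, without versions, and hg38 as build, although the lists hold mouse chromosomes and genes. The deposited signal of a peak is a whole number, about 6 times its width in bp at the median, which reads as summed coverage, with no scaling to depth stated. Widths and distances, in bp, were taken over unchanged. Of 17571 genes of the lists that a RefSeq table of GRCm38.p6 also holds, 190 had the same length and start in both, so coordinates were left as in the lists, and the table was used for gene types and microRNA sequences only. Gene types were matched by symbol for 96.3% of 3290 genes.

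Overlaps were computed with bedtools 2.31.1, the rest with Python 3.11.15, pandas 2.3.3, numpy 2.4.6 and scipy 1.17.1. Shares have 95% Wilson intervals and medians 95% order-statistic intervals. Depth is unknown. The functions were tested on simulated lists and found each simulated overlap, member and gene class. No test between genotypes was made, since each has 1 library.

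A few genes of the lists are not reported here and were left out of their counts. The rule for these peaks, the 14 gene lists and the alternatives were chosen with earlier results of these data known. Genes were named by rule: for each library the 5 strongest peaks with and 5 without counterpart, 3 highest per bp, 3 widest, 2 on each side of the limit, and over both the 5 genes with most peaks, up to 6 genes a list, and the 3 lowest and 3 highest ratios. Hes1, the homeobox genes and the microRNAs fall outside it and were chosen after their values were seen.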

Additional observations from a re-analysis of the deposited data

How the results depend on the processing

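No paired analysis was possible because a single library stands for each genotype. With a limit of 10 kb, the number of intergenic peaks fell to 784 in Nsd2fl/fl and 1046 in Nsd2ΔIE, their share of the list to 3.92% and 4.45%, the upstream share rose to 76.1% and 74.3%, and the overlapping share to 24.9% and 22.4%. A limit of 50 kb gave shares of the list of 13.7% and 15.0%. As a share of called length the values were 8.73% and 9.72%. In the strongest 50% of each list, the share of the list was 7.71% and 9.03%, the median width 5356 and 3914 bp, the overlapping share 19.2% and 15.5%, and the upstream share in Nsd2ΔIE 63.9%. The overlapping share was 11.7% and 9.25% when at least 50% of both peaks had to be shared, 19.7% and 15.8% against intergenic peaks up to 25 kb alone, and 19.9% in Nsd2fl/fl with lists of equal length. Counting none but the genes with such peaks in both libraries, 255 had less length and 77 more, where for peaks of any kind 3292 and 1498 of 7870 genes did. By construction, the 10 kb limit lowers the number of peaks and their share of the list, and the 50 kb limit raises that share. The stricter overlaps, and for Nsd2fl/fl the shortened Nsd2ΔIE list, likewise lower the overlapping share. Leaving out genes with such peaks in 1 library only likewise lowers the counts of genes with less and with more length. The cause of the other shifts was not tested. Of the 54 values under an alternative, the other 28 stayed within their interval or within 1.5 times the count, autosomes only among them. The order of genes with more and less length turned with lists of equal length, and the cause was not tested. Depth is unknown, so a peak near the signal limit of its list can be lost or gained with depth alone, and 30.3% and 30.1% of these peaks lay within 10% of it.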
